A study of Mus musculus with 6 samples.

Results

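Signalling downstream of the B cell receptor was followed through 35 genes that encode its kinases, adaptors, lipid enzymes, exchange factors, calcium and NFAT arm, protein kinase C, BCL10 and MALT1 arm and phosphatases. A gene was measured where a probe set was annotated to its symbol alone, which held for 33 of the 35, with 1 probe set each, among 22180 genes in all. Lyn and Itpr1 had no such probe set and were not analysed here. Total spleen RNA was profiled at 1 year of age, with 1 Affymetrix array per mouse, in 3 mice with induced AIMP2-DX2 and 3 control littermates. DX2 is a splice form of AIMP2, a scaffold protein that holds tRNA synthetases together, and lacks an exon. The DX2 mice had the genotype CAG-rtTA; TRE DX2/+, in which rtTA, driven by the broadly active CAG promoter, switches on the TRE DX2 transgene when doxycycline is present. The control mice had the genotype 0; TRE DX2 /+, which is the same transgene without rtTA. All mice were given doxycycline pellets (6.25 mg/kg) from 8 weeks of age. The comparison asks how spleen transcripts differed between these groups, and effects of DX2 and of rtTA cannot be told apart because the controls lacked rtTA.

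The B cell receptor has no catalytic activity of its own. When antigen is bound, Src-family kinases phosphorylate the tails of CD79A and CD79B, SYK docks there and phosphorylates the scaffold BLNK, and BTK and PLCG2 assemble on BLNK to release calcium and diacylglycerol. Calcium acts through calcineurin on NFAT factors, diacylglycerol acts on RasGRP exchange factors and protein kinase C, and the latter opens the route to NF-kB through BCL10 and MALT1, while phosphatases such as SHP-1 and SHIP-1 restrain the cascade. Several of these proteins also serve T cells, myeloid cells or platelets, and the spleen holds all of these. In whole spleen RNA, fewer cells of a type and less RNA per cell cannot be told apart.

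Xist and Y-linked transcripts marked 2 of the 3 controls as female, and marked control 3 and every DX2 mouse as male. DX2 1 stood apart in its neutrophil markers, with a mean log2 value of 9.44 over 8 genes against 7.16 to 8.04 on the 5 other arrays, and in its T cell markers, at 6.515 over 10 genes against 7.55 to 7.92. Values are log2 expression, differences are DX2 minus control, and a gene is called only at a Benjamini-Hochberg adjusted p under 0.05 over all 22180 genes (limma).

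The signalling genes were mostly lower in DX2 spleens, and the size of the difference varied widely among them. Of the 33, 28 were lower and 5 were higher, against 48.4% of all genes lower, and the count of lower members was 22 when arrays were centred on their medians and 27 after a second quantile normalization. The median difference was -0.29, against 0.01 over all genes, and the range ran from -1.21 for Blk to 0.16 for Sos1. No member passed the threshold, which 0.316% of all genes passed, and 2 (Bank1 and Malt1) had an adjusted p under 0.1, against 1.78% of all genes. In limma 13 members had an unadjusted p under 0.05 in limma, all of them lower, against 7.82% of all genes lower at that level. In 16 members all 3 DX2 values lay below all 3 control values, a pattern seen in 11.2% of all genes, and in no member did all DX2 values lie above, against 10.7%. The 16 became 12 with centred arrays. Centring used the median of all probe sets and raised the difference of every gene by the same amount. The median was then -0.20 over the members and 0.10 over all genes. The shares given for all genes come from arrays without centring. With 1 array left out, when fewer values make separation easier, between 16 and 23 members did not overlap. The share of all genes was not counted with an array left out, so the 11.2% is no background for these counts. The mean log2 value over the 33 genes was 8.89, 8.73 and 8.82 in controls 1, 2 and 3 and 8.26, 8.65 and 8.40 in DX2 1, 2 and 3, so the groups did not overlap in it and DX2 2 came closest to the controls.

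**Figure D1:**
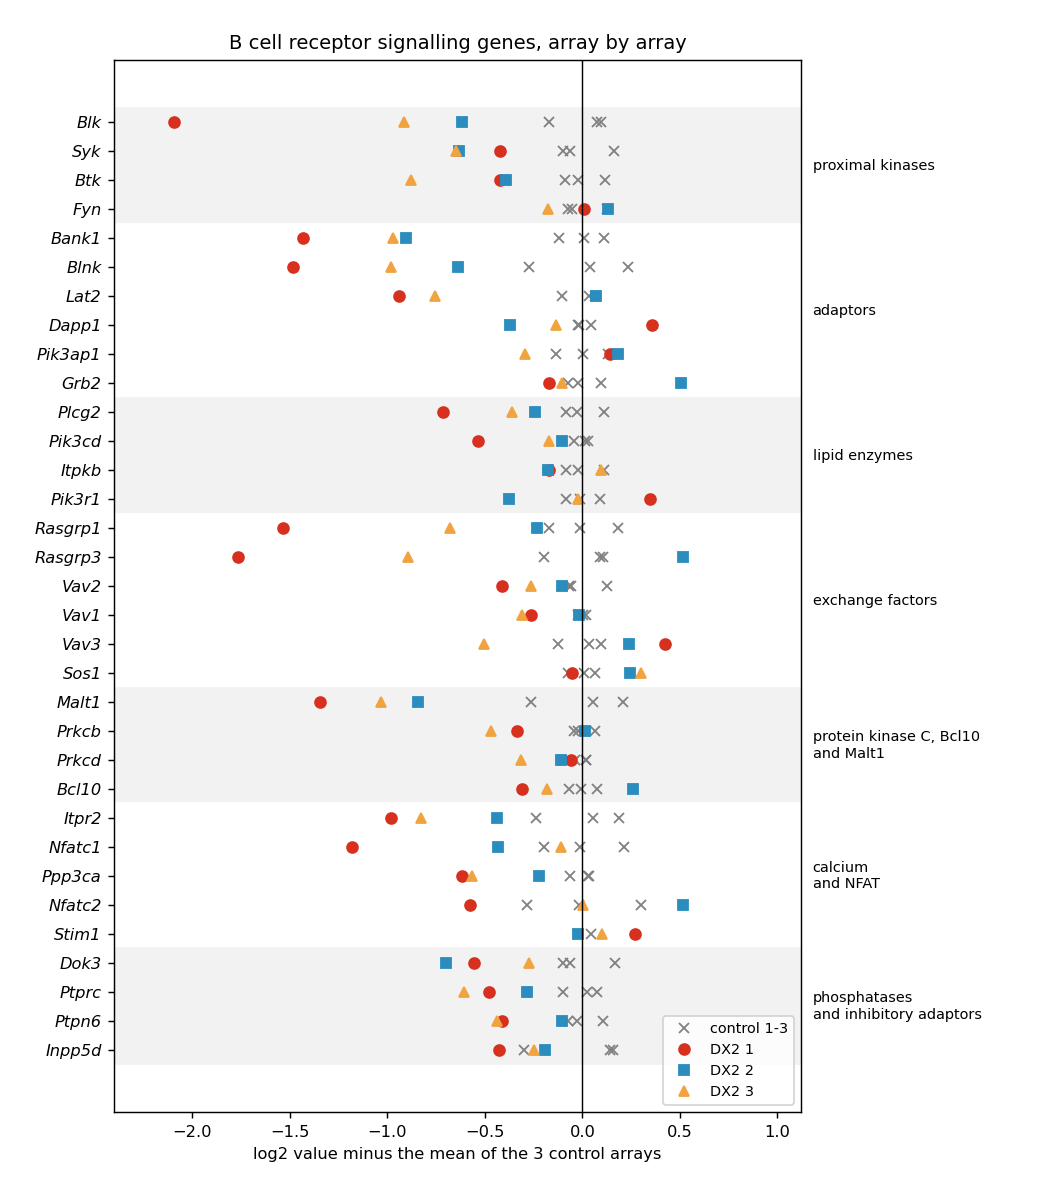
Each row is 1 of the 33 measured genes, grouped by arm, and the horizontal axis is the log2 value on an array minus the mean of the 3 control arrays (crosses, controls; coloured symbols, the 3 DX2 arrays). Bank1, Blnk, Malt1 and Blk have all 3 DX2 symbols well to the left of the controls, with DX2 1 leftmost, while the DX2 symbols of Fyn and Pik3ap1 fall on both sides of 0.

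Among the proximal kinases, Blk, Syk and Btk were lower on every DX2 array and Fyn was not. Blk, a Src-family kinase that among lymphocytes belongs mostly to B cells, read 9.30, 9.04 and 9.28 in controls 1 to 3 and 7.11, 8.59 and 8.29 in DX2 1 to 3. The groups did not overlap, and DX2 1 lay far below the other DX2 spleens. The mean was 2.31-fold lower in DX2, a log2 difference of -1.21 (SE 0.35, adjusted p = 0.163), and it was -0.77 without DX2 1. Syk, the kinase that docks on the phosphorylated receptor, read 9.91, 9.69 and 9.65 in control and 9.32, 9.12 and 9.10 in DX2, with no overlap and little spread within either group. Its difference of -0.57 (SE 0.12) had an adjusted p of 0.104. Btk, the Tec-family kinase that activates PLCG2, read 8.88, 8.94 and 9.08 in control and 8.54, 8.57 and 8.09 in DX2. The DX2 values again lay below all controls, here with DX2 3 lowest (-0.57, SE 0.16, adjusted p = 0.150). Fyn, a Src-family kinase used in T cells as well, read 7.77, 7.59 and 7.57 in control and 7.65, 7.78 and 7.47 in DX2. Its groups overlapped, and the difference of -0.01 (SE 0.12) changed sign with centred arrays (0.079).

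Of the 6 adaptors, Bank1 and Blnk lay below all controls on every DX2 array. Dapp1, Grb2 and Pik3ap1 differed by less than 0.1 in the mean, with DX2 spleens both above and below all controls. In Lat2, DX2 1 and DX2 3 lay below all controls and DX2 2 at the control level. None passed the threshold. Bank1, a B cell scaffold that links the receptor kinases to calcium release, had the smallest p of all members. It read 10.90, 10.77 and 11.001 in control and 9.45, 9.99 and 9.92 in DX2. Every DX2 value lay at least 0.78 below the lowest control, and the mean was 2.15-fold lower (-1.10, SE 0.16, adjusted p = 0.0569). Blnk, the scaffold on which BTK and PLCG2 meet, read 9.88, 9.37 and 9.68 in control and 8.16, 9.003 and 8.66 in DX2, 2.05-fold lower and without overlap (-1.03, SE 0.23, adjusted p = 0.107). Pik3ap1, known as BCAP, which brings phosphoinositide 3-kinase to the receptor complex, read 9.66, 9.39 and 9.54 in control and 9.68, 9.72 and 9.24 in DX2. Its difference was 0.01 (SE 0.16), with DX2 1 and DX2 2 above and DX2 3 below all controls. The phosphoinositide-binding Dapp1 differed by -0.05 (0.043 with centred arrays), with DX2 1 above and DX2 2 and DX2 3 below all controls. The ubiquitous Grb2 differed by 0.08 (SE 0.19, and -0.015 with array weights), with DX2 2 above and DX2 1 and DX2 3 below all controls. Both counted as overlapping. Lat2, a membrane adaptor of B and myeloid cells, was described after its values were seen because its DX2 spleens split. It read 7.80, 7.77 and 7.63 in control, 6.79 and 6.98 in DX2 1 and DX2 3, and 7.80 in DX2 2, and its difference of -0.54 became -0.34 without DX2 1 and -0.85 without DX2 2.

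The promoters of Blnk and Pik3ap1 are shown because these 2 adaptor genes lie near each other on mouse chromosome 19, with 4 protein-coding genes between them in RefSeq order, and gave unlike values, with Blnk without overlap between groups and Pik3ap1 with a difference near 0. That of Bank1 is shown as the member of smallest p, and that of Btk as a kinase without overlap. Each runs from 250 bases before to 50 bases after an annotated start in RefSeq (build GRCm38.p6), 5′ to 3′ on the gene's strand. Capitals mark matches on either strand to any of 5 motifs, CCCNNGGG (EBF type), ATGCAAAT (octamer), GAGGAAGT (PU.1 type), CACTTCCGG (ETS type) and TATAAA, and matches may overlap.
Blnk, chr19:40994172-40994471, minus strand: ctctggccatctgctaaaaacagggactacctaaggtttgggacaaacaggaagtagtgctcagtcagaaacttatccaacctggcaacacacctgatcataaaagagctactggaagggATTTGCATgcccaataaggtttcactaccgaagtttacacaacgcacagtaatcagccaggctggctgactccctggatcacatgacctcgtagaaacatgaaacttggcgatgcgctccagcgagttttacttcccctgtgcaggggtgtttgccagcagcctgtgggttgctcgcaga
Pik3ap1, chr19:41385053-41385352, minus strand: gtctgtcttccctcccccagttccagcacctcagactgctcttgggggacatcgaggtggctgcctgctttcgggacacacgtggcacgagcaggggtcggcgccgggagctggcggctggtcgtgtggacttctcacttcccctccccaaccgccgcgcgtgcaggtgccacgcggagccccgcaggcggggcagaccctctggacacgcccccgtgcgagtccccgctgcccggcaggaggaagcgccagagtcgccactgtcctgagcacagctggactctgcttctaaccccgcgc
Bank1, chr3:136326017-136326316, minus strand: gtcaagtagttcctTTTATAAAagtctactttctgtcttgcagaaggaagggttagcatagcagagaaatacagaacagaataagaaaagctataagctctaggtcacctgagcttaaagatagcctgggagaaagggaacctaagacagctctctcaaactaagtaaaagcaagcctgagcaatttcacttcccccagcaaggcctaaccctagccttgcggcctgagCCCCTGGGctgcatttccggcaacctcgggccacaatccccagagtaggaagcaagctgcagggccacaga
Btk, chrX:134583091-134583390, minus strand: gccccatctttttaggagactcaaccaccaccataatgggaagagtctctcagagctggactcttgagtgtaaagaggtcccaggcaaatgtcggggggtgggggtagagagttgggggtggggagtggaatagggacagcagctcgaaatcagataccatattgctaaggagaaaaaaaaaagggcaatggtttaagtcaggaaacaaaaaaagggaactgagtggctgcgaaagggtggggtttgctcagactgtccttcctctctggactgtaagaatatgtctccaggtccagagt

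The Blnk promoter held an octamer, which 1.74% of all 32851 RefSeq promoters in the table hold, and the Bank1 promoter held an EBF-type match, found in 13.7%. Bank1 also held TATAAA on both strands, overlapping in 1 place far from the start, a motif found in 13.6% of promoters. The Pik3ap1 and Btk windows held none of the 5 letter patterns, and the Pik3ap1 window was 69.7% G or C against 48.7% for Bank1. Promoters were found for 28 of the 35 genes (39 windows, since some genes have several starts). Of the 39 windows, 10 had an EBF-type match, 2 an octamer, 4 a PU.1-type match (3.20% of all promoters), 1 the ETS-type match (2.03%) and 8 TATAAA. The EBF-type matches lay in members of both kinds, in Bank1 and Itpr2, which were lower on every DX2 array, and in Fyn and Vav3, which were not.

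**Figure D2:**
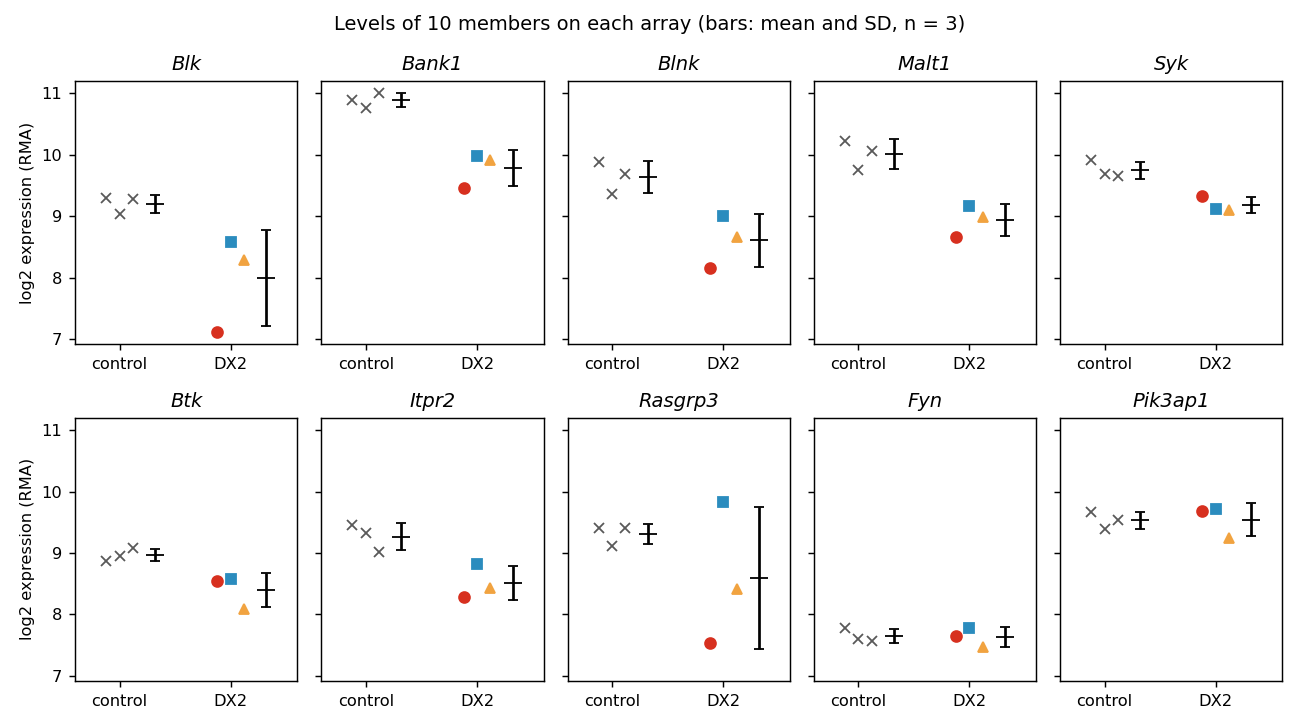
Log2 expression on each array for 10 members, controls as crosses and DX2 arrays as coloured symbols, with the mean and SD of each group (n = 3) as bars. Bank1, Blnk, Malt1, Syk, Btk, Itpr2 and Blk do not overlap between groups, while Rasgrp3 spreads from 7.54 to 9.83 among the DX2 spleens and Fyn and Pik3ap1 overlap.

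The lipid enzymes showed smaller differences. Plcg2, the phospholipase that makes inositol trisphosphate and diacylglycerol, read 9.02, 8.88 and 8.83 in control and 8.20, 8.67 and 8.55 in DX2, without overlap (-0.44, SE 0.15, adjusted p = 0.212). Pik3cd, the phosphoinositide 3-kinase catalytic subunit of leukocytes, read 8.36, 8.43 and 8.41 in control and 7.87, 8.30 and 8.23 in DX2. Its groups did not overlap, but the difference of -0.27 (SE 0.14) came mainly from DX2 1 and was -0.14 without it. Pik3r1, the regulatory subunit that pairs with it, read 8.97, 8.90 and 9.08 in control and 9.33, 8.61 and 8.96 in DX2, with DX2 1 above and DX2 2 below all controls (-0.02, and 0.074 with centred arrays). Itpkb, which converts inositol trisphosphate further, differed by -0.09 (0.0065 with centred arrays).

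Of the exchange factors, the RasGRP genes had the larger differences and the Vav genes small ones. Rasgrp1, a diacylglycerol-responsive activator of Ras that T cells also use, read 8.73, 8.38 and 8.53 in control and 7.01, 8.31 and 7.86 in DX2. The groups did not overlap, with 0.062 between them, and the difference of -0.82 (SE 0.30, adjusted p = 0.252) was -0.46 without DX2 1. Rasgrp3, described after its values were seen, varied most of all members among DX2 spleens, with values of 7.54, 9.83 and 8.42 for DX2 1 to 3 and of 9.41, 9.11 and 9.40 for the controls. DX2 2 lay above every control and the 2 others below, and the difference of -0.71 (SE 0.50) was -0.19 without DX2 1 and -1.33 without DX2 2. The Rac activator Vav2 read 8.04, 7.86 and 7.84 in control and 7.50, 7.81 and 7.65 in DX2, lower without overlap but by a small amount (-0.26, SE 0.12, adjusted p = 0.362). Its relative Vav3 read 6.78, 6.94 and 6.997 in control and 7.33, 7.14 and 6.40 in DX2, with DX2 1 and DX2 2 above and DX2 3 below all controls (0.05, SE 0.23, and -0.042 among the male spleens). Vav1, the form found across blood cells, differed by -0.20, and Sos1, the Ras activator carried by GRB2, by 0.16 (0.27 without DX2 1 and 0.096 without DX2 3), with overlapping groups.

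In the arm of protein kinase C, BCL10 and MALT1, Malt1 had the largest difference. Malt1, the paracaspase that acts with BCL10 on the way to NF-kB, read 10.22, 9.75 and 10.07 in control and 8.67, 9.17 and 8.98 in DX2. The groups were separated by 0.58, more than the range within either group, and the mean was 2.11-fold lower (-1.07, SE 0.18, adjusted p = 0.0646). Its partner Bcl10 read 7.61, 7.75 and 7.67 in control and 7.36, 7.94 and 7.49 in DX2, with DX2 2 above and the 2 others below the controls (-0.08, SE 0.16, and 0.015 with centred arrays). Prkcd, a broadly expressed protein kinase C, read 8.87, 8.81 and 8.87 in control and 8.79, 8.74 and 8.53 in DX2, which did not overlap by a narrow margin (-0.16, SE 0.11, adjusted p = 0.535, and -0.083 without DX2 3). Prkcb, the form that links the receptor to NF-kB in B cells, differed by -0.26 (SE 0.14), with DX2 2 at the control level, and by -0.16 without DX2 3 and -0.40 without DX2 2.

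In the calcium arm, the release channel and calcineurin genes were lower and the calcium sensor was not. Itpr2, an inositol trisphosphate receptor of the endoplasmic reticulum, read 9.45, 9.32 and 9.02 in control and 8.28, 8.82 and 8.44 in DX2. It did not overlap and was 1.68-fold lower in the mean (-0.75, SE 0.18, adjusted p = 0.115). Ppp3ca, a catalytic subunit of calcineurin, read 8.92, 8.82 and 8.92 in control and 8.27, 8.67 and 8.32 in DX2, also without overlap (-0.47, SE 0.13, adjusted p = 0.158). Nfatc2, a transcription factor that calcineurin releases to the nucleus, read 6.91, 6.33 and 6.60 in control and 6.04, 7.13 and 6.62 in DX2, so that DX2 1 lay below and DX2 2 above all controls (-0.02, SE 0.28, and 0.073 with centred arrays). Nfatc1 differed by -0.57 (SE 0.27), -0.27 without DX2 1, and its groups overlapped. Stim1, the sensor that opens calcium entry when the store is empty, differed by 0.12 (SE 0.11), which was 0.038 without DX2 1 and 0.18 without DX2 2.

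In the negative arm the differences of the 4 genes lay between -0.51 and -0.29, and none passed the threshold. Dok3, an adaptor that recruits SHIP-1, read 8.63, 8.40 and 8.37 in control and 7.91, 7.77 and 8.19 in DX2 (-0.51, SE 0.14, adjusted p = 0.158). Ptprc, which encodes CD45, the phosphatase of all nucleated blood cells that keeps Src-family kinases ready, read 11.37, 11.25 and 11.42 in control and 10.87, 11.06 and 10.74 in DX2 (-0.46, SE 0.12, adjusted p = 0.144). Ptpn6, which encodes SHP-1, read 10.61, 10.43 and 10.48 in control and 10.09, 10.40 and 10.07 in DX2, with DX2 2 only 0.029 below the lowest control (-0.32, SE 0.13, adjusted p = 0.287). These 3 did not overlap between groups. Inpp5d, which encodes SHIP-1, read 9.14, 8.70 and 9.16 in control and 8.57, 8.81 and 8.75 in DX2, overlapping because control 2 was low (-0.29, SE 0.15).

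**Figure D3:**
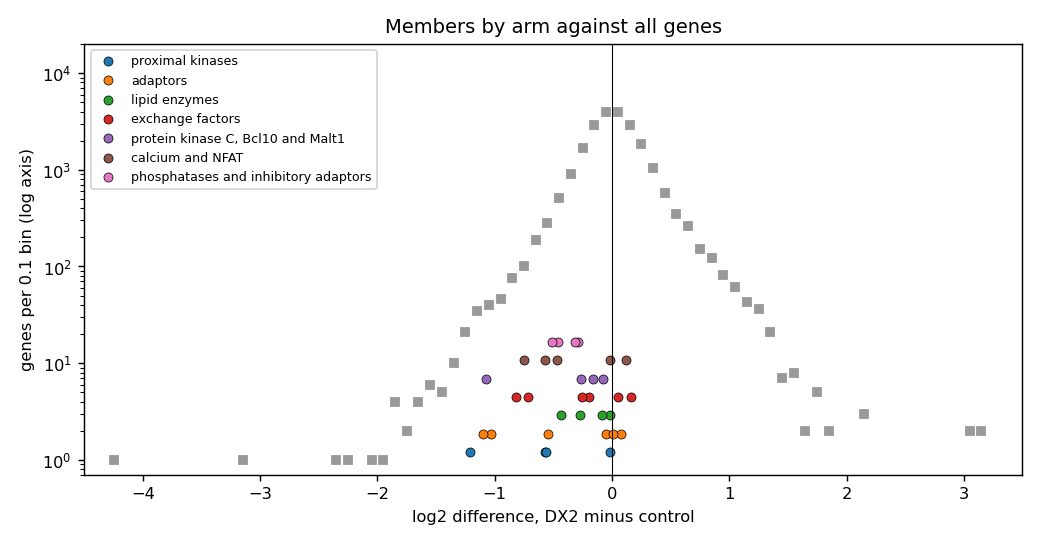
Grey squares give the number of genes per 0.1 bin of log2 difference (DX2 minus control, log vertical axis) over all 22180 genes, and coloured circles mark the 33 members, 1 row per arm at a height without meaning. The members lie between -1.21 and 0.16, most of them left of 0, inside the range of all genes.

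The members were also sorted by the cells that are known to express them, and groups without overlap, all lower, are counted beside the 11.2% of all genes. The 3 genes expressed mostly in B cells, Blk, Blnk and Bank1, had a median difference of -1.10 and no overlap between groups. The 7 measured genes of B and myeloid cells with little expression in T cells had a median of -0.51 and 4 without overlap. The 8 assigned to B and T cells had a median of -0.23 and 2 without overlap. They are Fyn, Vav1, Rasgrp1, Itpkb, Pik3cd, Prkcb, Nfatc1 and Nfatc2, and some, such as Vav1 and Pik3cd, are found in other blood cells too. The 15 others formed a broad class, which includes genes of blood cells such as Ptprc, with a median of -0.26 and 7 without overlap. Malt1 belongs to the broad class, and its difference of -1.07 was larger than that of Blnk (-1.03). The differences between these classes carry no test.

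B cell markers were lower beside these genes. All 11 measured markers were lower, with differences from -3.16 to -0.64 and a median of -1.21, and 4 of them passed the threshold. Their mean log2 value was 10.1, 9.83 and 10.2 in controls 1 to 3 and 8.13, 8.55 and 9.01 in DX2 1 to 3, and the lowest single DX2 value was 6.09, for Fcer2a in DX2 2. Of the 33 members, 7 had a difference as low as the smallest among these markers (Blk, Bank1, Malt1, Blnk, Rasgrp1, Itpr2 and Rasgrp3) and none reached the marker median. The receptor chains encoded by Cd79a and Cd79b each carry a signalling tail. Cd79b fell by 1.14 (SE 0.16, adjusted p = 0.0456) and Cd79a differed by -1.36 (SE 0.35, adjusted p = 0.138). The coreceptor component Cr2 fell by 3.16 (adjusted p = 0.0431). With 1 array left out, each of the 4 marker calls held only without DX2 2, except that Cr2 also passed without DX2 1. Neither Cd79b nor Cr2 passed with centred arrays or a sex term, and Cr2 did not pass with a robust variance prior either. The differences in the fits without an array lay between -1.27 and -0.9996 for Cd79b and between -3.58 and -2.68 for Cr2. Myeloid markers went in both directions. Of 12 red pulp macrophage genes 10 were higher, with a mean of 8.51 to 8.75 in control and 9.12 to 9.28 in DX2. Hmox1 and Slc40a1 were lower. Of 6 monocyte genes 5 were higher (7.51 to 7.78 against 7.82 to 8.10), and all 8 neutrophil genes were higher with overlapping groups. Of 6 dendritic cell genes 4 were lower and 2 higher (7.17 to 7.28 against 7.01 to 7.23). The part of these shifts in cell markers in the values of the signalling genes was not tested.

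**Figure D4:**
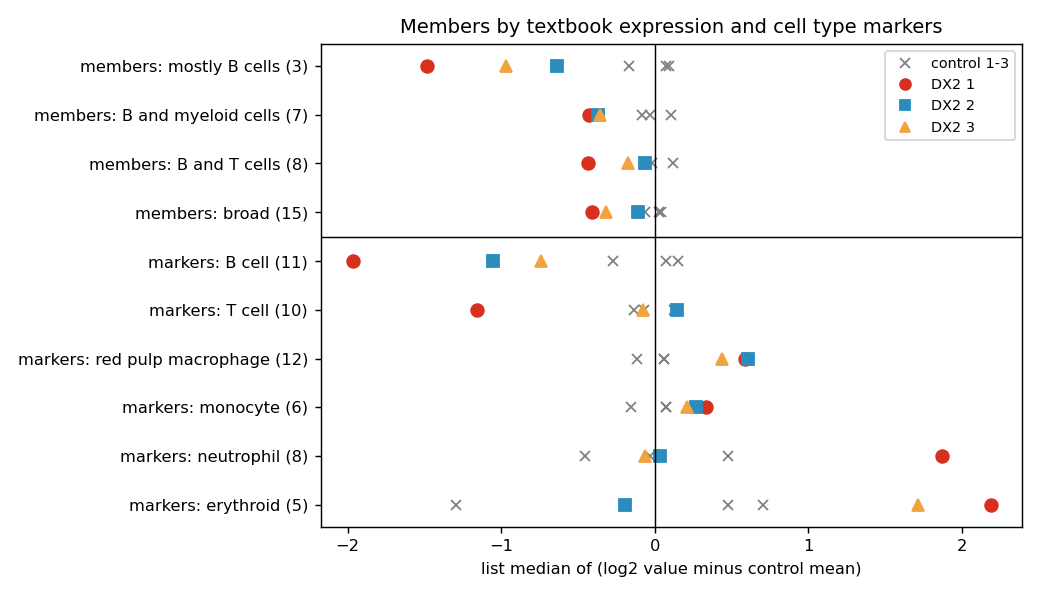
Each point is the median over a gene list of the log2 value on an array minus the control mean, for 4 classes of members (above the line) and 6 marker lists (below), with the number of genes in parentheses. The B cell markers and every class of members except the genes shared by B and T cells lie left of the controls on all 3 DX2 arrays. For the genes shared by B and T cells, DX2 2 lies among the controls. The T cell, neutrophil and erythroid markers separate DX2 1 from DX2 2.

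The DX2 spleens differed among themselves in a pattern shared by many members. Within the DX2 group, 18 of 33 members were lowest in DX2 1, 10 in DX2 3 and 5 in DX2 2, and DX2 1 was the lowest of the 3 for 38.6% of all genes. The 3 mostly B cell genes averaged 8.24, 9.19 and 8.96 on DX2 arrays 1 to 3, and the control arrays spanned 9.72 to 10.02. The 8 genes shared with T cells averaged 7.75, 8.29 and 8.10, with controls spanning 8.23 to 8.43. By comparison all 10 T cell markers were lower in the mean of the DX2 group (median -0.34) without any being called or free of overlap. All 10 were lowest in DX2 1 among the DX2 spleens. The T cell markers averaged 6.515, 7.92 and 7.72 in DX2 1 to 3, with controls spanning 7.55 to 7.84. Erythroid markers averaged 9.78, 7.52 and 9.45, with controls spanning 6.44 to 8.29. Their part in the signalling values was not tested.

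Which members were called depended on the arrays and on how arrays were weighted. Without DX2 2, 5 members passed, Bank1 (-1.20, adjusted p = 0.0395), Blnk (-1.23), Malt1 (-1.19), Lat2 (-0.85) and Itpr2 (-0.90), among the 1.67% of all genes that passed in that fit. With array weights, 5 passed again, with Syk (adjusted p = 0.0456) in place of Lat2, against 2.47% of all genes. Bank1 alone passed after the 40% dimmest genes were removed (adjusted p = 0.0442, against 0.939% of genes) and with a mean-variance trend (adjusted p = 0.0498, against 0.325%). No member passed when any other array was left out. Among the 4 male spleens, 1 control against 3 DX2, 28 of 33 members were lower and the largest differences were -1.28 for Blk, -1.22 for Bank1, -1.13 for Malt1 and -1.07 for Blnk. None was called there, in a fit that takes the lone control to vary like the DX2 spleens.

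**Figure D5:**
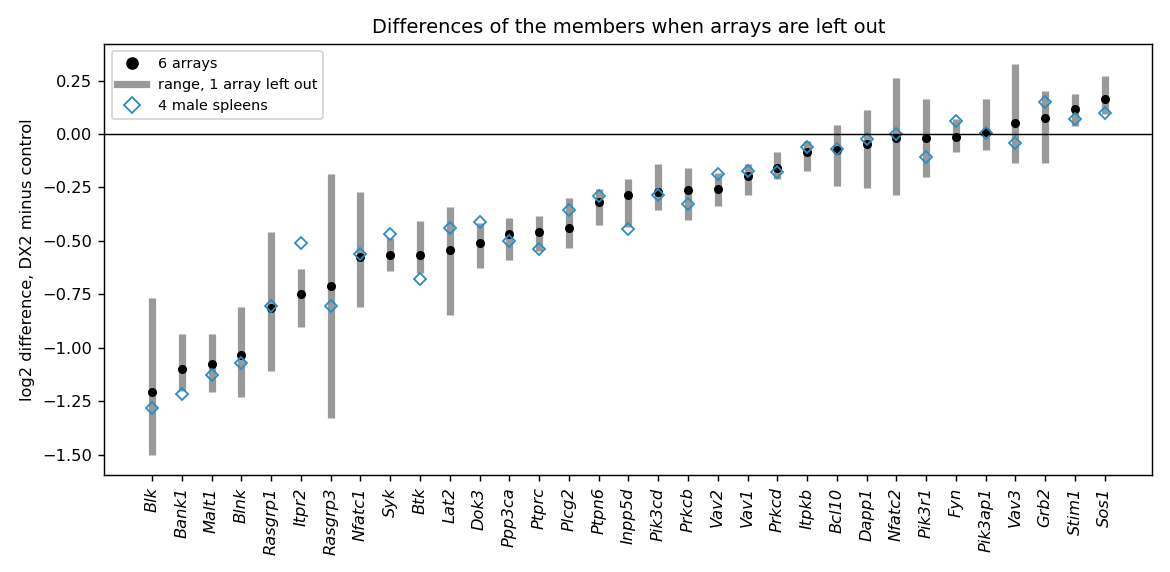
Log2 difference (DX2 minus control) of each member over all 6 arrays (dots), the range over fits that leave out 1 array (grey bars), and the difference among the 4 male spleens (diamonds). Blk, Bank1, Malt1 and Blnk stay at or below -0.77 throughout, Rasgrp3 ranges from -1.33 to -0.19, and 8 genes near 0 cross it when an array is left out.

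Other genes of the pathway did not share a single direction. Of 81 listed in 5 arms, 64 were measured, 37 were lower and 27 higher (median -0.09), and 2 passed the threshold, both lower, against 0.316% of all genes. Dgka, a diacylglycerol kinase that removes the signal RasGRP proteins read, fell by 1.10 (SE 0.13, adjusted p = 0.0387), from 10.4, 10.2 and 10.5 in control to 9.07, 9.34 and 9.32 in DX2. Ikbkb, the kinase that releases NF-kB from its inhibitor, fell by 0.86 (SE 0.10, adjusted p = 0.0387), from 8.41, 8.31 and 8.48 to 7.58, 7.53 and 7.51. Both were tightly grouped, with DX2 spleens within 0.27 of each other. With 1 array left out both calls held only without DX2 2, and they were lost with centred arrays, a sex term and male spleens alone. Over the fits without an array the differences lay between -1.18 and -1.01 for Dgka and between -0.90 and -0.82 for Ikbkb.

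Relatives of the members gave both like and unlike values. In the calcium arm 7 of 9 genes were lower, led by the inositol trisphosphate receptor Itpr3 (-0.78, adjusted p = 0.0995), the calcineurin subunit Ppp3cc (-0.82, adjusted p = 0.106) and Nfatc3 (-0.45, adjusted p = 0.185), all without overlap. In the lipid arm 8 of 16 were lower, with Pik3cg at -0.49 (adjusted p = 0.111), while Akt1, the kinase downstream of phosphoinositide 3-kinase, lay above all controls on every DX2 array (0.37, adjusted p = 0.150). In the NF-kB arm 6 of 8 were lower, and the subunit gene Rel differed by -0.92 (SE 0.23, adjusted p = 0.123) and the ubiquitin ligase gene Traf6 by -0.28. Among 18 other kinases, adaptors and small GTPases 10 were higher, with the adaptor Gab2 at 0.62 (SE 0.12, adjusted p = 0.0923) and the MAP kinase kinase Map2k2 at 0.48 (adjusted p = 0.112) above all controls on every DX2 array, and the blood cell GTPase Rac2 at -0.42 (adjusted p = 0.259) below them. Of 13 negative regulators 8 were lower, among them the sialic acid-binding receptors Siglecg (-1.27, SE 0.20, adjusted p = 0.0606) and Cd22 (-1.27, SE 0.39, adjusted p = 0.188), while the adaptor Dok1 was higher (0.46, adjusted p = 0.112), opposite to its relative Dok3.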

How the data were processed

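The authors deposited 1 table of log2 expression values for 6 arrays, made with RMA per the submitters' processing notes. No source used here gives the version, annotation or genome build, and the log2 scale was inferred from the range (0.771 to 13.3). Of 41345 probe sets, 23521 had 1 gene symbol in the platform annotation, 1814 had several and were not used, and 16010 were unnamed. Each of 22180 genes was represented by its probe set of highest mean. Groups and replicate numbers came from the sample titles, which call the replicates biological. Differences were fitted with limma 3.58.1 under R 4.3.3, without covariate or filter, with Benjamini-Hochberg adjustment over all genes at 0.05, and the fit was tested on simulated data. The median standard error was 0.16 over the members. RMA compresses large differences, arrays have no read depth, and their number limits the precision.

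The members and gene lists were chosen with earlier results of these data known. Members were described array by array when their groups did not overlap (up to 3 per arm of largest difference) or when they had the smallest difference of their arm, and up to 3 genes of smallest unadjusted p were named from other lists. Alternatives covered pairing, each array, dim genes, the variance prior, array weights, normalization, probe sets, sex and the threshold. Promoters came from RefSeq (GRCm38.p6).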

Additional observations from a re-analysis of the deposited data

How the results depend on the processing

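Over all genes 70 passed, 1 with the replicate block, between 1 and 370 with 1 array left out, 125 after removing dim genes, 547 with array weights, 2 with centred arrays, 2 with a sex term, 0 among male spleens and 394 at an adjusted p under 0.1. Of the members 0 passed, between 0 and 5 with 1 array left out, 1 after removing dim genes, 1 with a mean-variance trend, 5 with array weights and 2 (Bank1 and Malt1) at an adjusted p under 0.1. The members' median of -0.29 lay between -0.40 (without DX2 2) and -0.23 with 1 array left out. Fewer arrays or degrees of freedom enter the leave-one-out, block and sex fits. Centring on the median of all probe sets raised every difference by the same amount. The cause of the other changes was not tested. Deviations from the group mean correlated across genes at -0.32, -0.14 and 0.07 for same-numbered arrays, and between -0.21 and 0.33 for other pairs. Such correlations cannot decide whether the spleens were paired, because deviations within a group of 3 depend on each other. The replicate block called no member, nor Dgka, Ikbkb, Cd79b, Cr2, Fcer2a or Ebf1.

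Of 528 member values under these alternatives, 29 changed sign, all in 9 genes near 0, and 12 newly passed. Many of these values could not change sign. The replicate block, dim-gene, mean-variance trend, robust prior and probe set alternatives left every member's difference as in the main fit. The sex term and the male spleens gave the same differences as each other. With array weights Grb2 was -0.015, Pik3ap1 -0.13 and Vav3 -0.21. Nfatc2 was 0.020 after a second quantile normalization. With centred arrays Fyn was 0.079, Dapp1 0.043, Pik3r1 0.074, Itpkb 0.0065, Bcl10 0.015 and Nfatc2 0.073. With a sex term and among male spleens Fyn was 0.062 and Vav3 -0.042. With 1 array left out the range was -0.085 to 0.070 for Fyn, -0.13 to 0.33 for Vav3, -0.29 to 0.26 for Nfatc2, -0.074 to 0.16 for Pik3ap1, -0.20 to 0.16 for Pik3r1, -0.25 to 0.040 for Bcl10, -0.25 to 0.11 for Dapp1 and -0.14 to 0.20 for Grb2.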

Other observations

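The 4 protein-coding genes that lie between Blnk and Pik3ap1 in RefSeq order overlapped between the groups. Tm9sf3, a membrane protein gene, read 9.83, 9.87 and 9.91 in control and 9.84, 9.96 and 9.82 in DX2. Dntt, which encodes the terminal transferase of early lymphocytes, differed by -0.15, Opalin by -0.026 and Tll2 by -0.039, but their values of 3.37 to 4.83 lay below the median gene of every array (5.42 to 5.46).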
